A study of Mus musculus with 2 samples.

Results

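Mir139 (ENSMUSG00000065446.1) had the most placed reads of any microRNA gene outside the let-7 family in adult mouse hippocampus. Multimapping reads, 42.6% of all reads in replicate 1 and 46.0% in replicate 2, are in no gene's count. The order of genes with near-identical copies may therefore be too low. It was chosen for that level, as the row whose Ensembl identifier maps to Mir139 in GENCODE annotation M21, and is 1 of 2202 microRNA genes in the deposited tables. The values that chose it are the same-strand counts, scaled to a sum of 1000000 (CPM) over all microRNA genes of a library, so the gene was selected on its level, and its level and rank are given as a description without a test. The samples came from the hippocampus, labelled as a layer of it, of male B6CASTF1/J mice aged 2 months, which are F1 hybrids of the C57BL/6J and CAST/EiJ strains. There was 1 group with 2 biological replicates, no treatment and no second group. Each replicate has its own biosample in the labels, but both carry the same donor entry, and the spread between them may be smaller than that between animals.

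A microRNA is cut from a hairpin precursor by the enzymes Drosha and Dicer and guides an Argonaute protein to messenger RNAs whose 3′ untranslated regions pair with its seed, the bases near its 5′ end. Target mRNAs are then translated less or degraded. Mir139 lies inside Pde2a, the gene of phosphodiesterase 2A, a cGMP-stimulated enzyme that breaks down cAMP and cGMP and is known for high levels in hippocampus and other forebrain regions. In human tumour cells miR-139-5p is known as a repressor of growth and migration genes, among them IGF1R, a growth factor receptor, ROCK2, a kinase of the cytoskeleton, the transcription factor FOS and the chemokine receptor CXCR4.

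The hairpin gives a product from each arm, and both are shown because the deposited count of the gene is the sum over the hairpin and does not say which arm was read. In the hairpin the capitals mark the mature products, and in the mature sequences they mark the seed, bases 2 to 8. All 3 sequences come from RefSeq on GRCm38.p6, plus strand.
mmu-mir-139 hairpin: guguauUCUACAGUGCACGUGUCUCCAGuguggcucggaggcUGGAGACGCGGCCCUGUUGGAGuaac
mmu-miR-139-5p: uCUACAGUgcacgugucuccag
mmu-miR-139-3p: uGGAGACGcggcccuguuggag

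The hairpin occupies chromosome 7, positions 101475376 to 101475443 of mm10, and its RefSeq and GENCODE M21 sequences are identical. The 5p product lies at 101475382 to 101475403 and the 3p product at 101475418 to 101475439, with 14 bases between them. No other mature microRNA among the 1738 in the RefSeq table had the seed of either arm. The nearest was mmu-miR-6397, printed here for its first bases, which shares bases 2 to 7 with miR-139-3p but not base 8.
mmu-miR-6397: uGGAGACUuucaguggaguga
Its gene, Mir6397 on chromosome 4, had 0 counts in both replicates. The approximate upper 95% limit for a count of 0 is 3 counts, equal to 1.29 CPM (replicate 1) and 0.879 CPM (replicate 2).

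Mir139 had 138819 counts in replicate 1 and 279021 in replicate 2. These equal 59771 CPM in replicate 1 (Wilson 95% interval 59467 to 60076) and 81726 CPM in replicate 2 (81436 to 82017), a mean of 70748 ± 15525 CPM (SD, n = 2). The intervals cover counting error only and are far narrower than the gap between the replicates. Mir139 made up 5.98% of the 2322520 counts on microRNA genes in replicate 1 and 8.17% of the 3414105 in replicate 2. On average 1 in 16.7 placed microRNA reads of replicate 1 and 1 in 12.2 of replicate 2 were Mir139 reads.

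**Figure D1:**
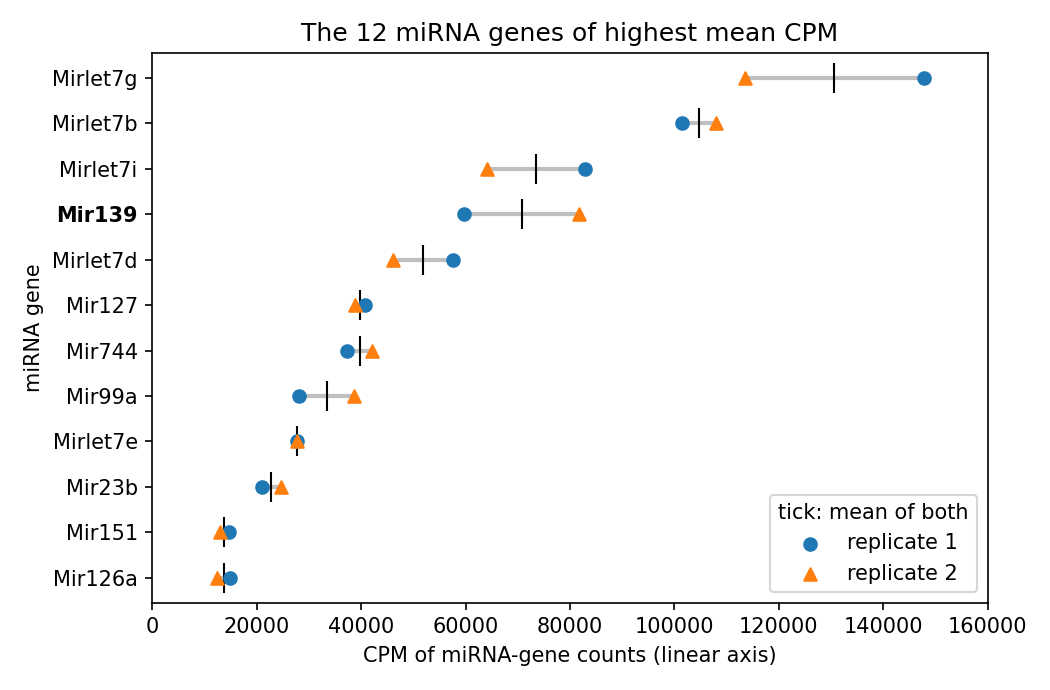
CPM on a linear axis of the 12 microRNA genes with the highest mean, in replicate 1 (blue circles) and replicate 2 (orange triangles), with the mean as a black tick and the gap as a grey bar. Mir139 lies at 59771 CPM (replicate 1) and 81726 CPM (replicate 2), and its range overlaps that of Mirlet7i alone among these 12 genes.

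The order of levels, which covers placed reads only, put Mir139 at rank 4 by mean, rank 4 in replicate 1 and rank 3 in replicate 2. Mirlet7g and Mirlet7b, of the let-7 family known for its part in developmental timing and differentiation, were above it in both replicates. Mir139 was at 0.405 times the level of Mirlet7g in replicate 1 and 0.720 times in replicate 2, and at 0.589 and 0.757 times that of Mirlet7b. Against Mirlet7i the order turned. Mir139 was at 0.722 times Mirlet7i in replicate 1 and 1.28 times in replicate 2, so these neighbours do not differ beyond their spread.

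Below it, Mir139 stood 1.04-fold above Mirlet7d in replicate 1 and 1.77-fold in replicate 2, the same order in both, with a mean log2 ratio of 0.44 ± 0.55 (SD, n = 2) that does not exceed its spread. The next genes outside the let-7 family, the first that the choice by level left out, were Mir127 at 39726 ± 1321 CPM and Mir744 at 39694 ± 3334 CPM (SD, n = 2). Mir127 is a microRNA of the imprinted Dlk1-Dio3 domain. Mir139 was 1.47-fold above Mir127 in replicate 1 and 2.11-fold in replicate 2, and 1.60-fold and 1.94-fold above Mir744. Mir99a followed at 33399 ± 7371 CPM. Each placed read is taken as a product of about the same length, so CPM were not divided by gene length.

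Across the 401 genes detected at 2 CPM or more in both replicates, the median level was 86.1 CPM (replicate 1) and 96.1 CPM (replicate 2). Mir139 was 694-fold above that median in replicate 1 and 851-fold in replicate 2. The 328 least abundant detected genes, 81.8% of all detected, summed to 69714 CPM by mean, still under the level of Mir139 alone. Chromosome 7 held 153 listed microRNA genes, 23 of them detected, and Mir139 gave 77.0% of that chromosome's counts in replicate 1 and 81.7% in replicate 2.

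The share taken by Mir139 depends on what it is divided by, and it was lower in replicate 1 under each of the 4 denominators tried. With the 12 let-7 genes left out of the total, Mir139 made up 10.5% in replicate 1 and 13.0% in replicate 2. Of all reads, placed or not, it made up 2.16% (Wilson 95% interval 2.14 to 2.17) of the 6441333 in replicate 1 and 2.79% (2.78 to 2.80) of the 10003856 in replicate 2. Multimapping reads, which are in no gene's count, were 42.6% of replicate 1 and 46.0% of replicate 2. Counted together with the placed microRNA reads, they lower the Mir139 share to 2.74% in replicate 1 and 3.48% in replicate 2.

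**Figure D2:**
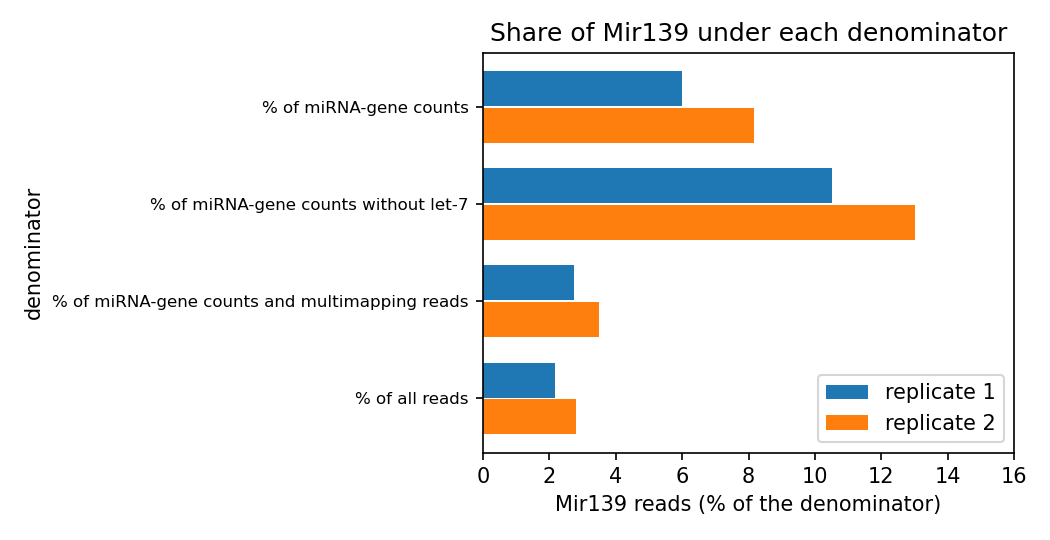
Mir139 reads as a percentage of 4 denominators in replicate 1 (blue) and replicate 2 (orange), with bars from 0 and no error bar since each bar is 1 library. The share runs between 2.16% of all reads and 13.0% of placed reads without let-7, and replicate 1 has the shorter bar in each pair.

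Between the replicates, Mir139 was 1.34-fold lower in replicate 1, a log2 ratio of replicate 1 over replicate 2 of -0.43 after TMM scaling (exact 95% binomial interval -0.44 to -0.42, counting error only). The log10 of its adjusted p was at most -1808.6 (exact binomial test, two-sided, Benjamini-Hochberg adjustment over the 401 detected genes). That test compares 2 libraries, not conditions, and at this depth it passes small differences. It passed 204 of the 401 detected genes, or 50.9%, and 113, or 28.2%, were lower in replicate 1, against 91 higher. With upper quartile scaling the split was 76 lower and 140 higher, and Mir139 remained lower. Among the 84 genes at 1000 CPM or more in both replicates 79 passed, so passing the test is not particular to Mir139.

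In size the Mir139 difference was near the middle of the detected genes, and its place depends on the scaling. With TMM 145 of the 401 differed more and the median difference was 1.26-fold, while with upper quartile factors Mir139 was 1.18-fold lower in replicate 1 and 259 differed more. The biological coefficient of variation, estimated by edgeR over all detected genes, was 29.9%. With TMM, of the 84 genes at 1000 CPM or more 23 differed more than Mir139, and 12 were lower still in replicate 1. The let-7 genes went the other way, with 8 of the 12 past the test and higher in replicate 1, and 1 past it and lower. Of all 401 detected genes 91 passed and were higher, and 113 passed and were lower. Of the 84 at 1000 CPM or more, 43 passed and were higher and 36 lower. Across the other scalings 7 to 12 let-7 genes were higher in replicate 1 and at most 1 lower. Of the 12 let-7 genes 6 have a run of at least 20 nt in common with another hairpin, and multimapping reads are in no gene's count. The 12 let-7 genes summed to 432882 CPM (replicate 1) and 370264 CPM (replicate 2). With these genes out of the total, Mir139 was still 1.23-fold lower in replicate 1, against 1.37-fold by plain CPM.

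**Figure D3:**
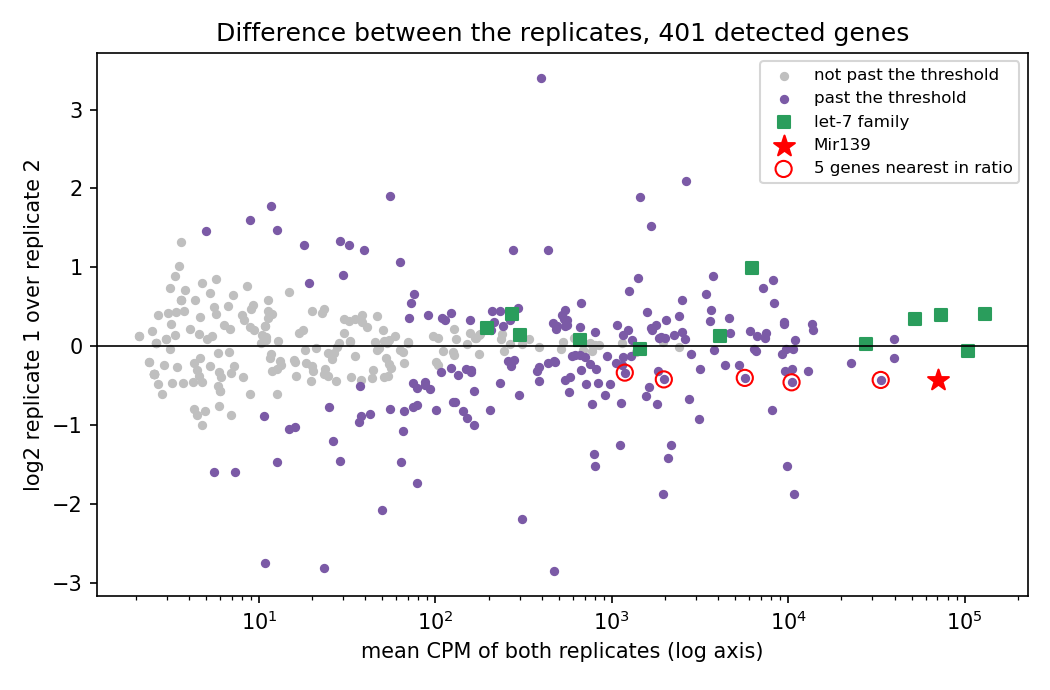
Log2 ratio of replicate 1 over replicate 2 (y axis, TMM scaling) against mean CPM (x axis, log) for the 401 detected genes, purple points being genes past the threshold of the exact binomial test and grey points the rest, the let-7 family as green squares, Mir139 as a red star and the 5 abundant genes nearest to it in ratio ringed in red. Mir139 lies at -0.43, with 145 genes farther from 0 under this scaling.

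The 5 genes whose replicate ratio was nearest to that of Mir139, among those at 1000 CPM or more in both, were Mir99a, Mir181c, Mir100, Mir137 and Mir434. Likeness here means the distance between log2 ratios over 2 libraries, which is a single contrast. Mir99a, a member of the miR-99/100 family, had a log2 ratio of -0.43, from 28187 CPM (replicate 1) and 38611 CPM (replicate 2). Mir139 was 2.12-fold above Mir99a in each replicate. Mir137, a microRNA known for its place in neuronal maturation, had a log2 ratio of -0.46, from 8697 CPM (replicate 1) and 12170 CPM (replicate 2), and Mir139 was 6.87-fold and 6.72-fold above it. Mir181c had a log2 ratio of -0.42, Mir100 of -0.40 and Mir434 of -0.34.

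Mir139 reads lay on 1 strand. It had 0 counts on the opposite strand in both replicates, with an approximate upper 95% limit of 0.00216% of its reads in replicate 1 and 0.00108% in replicate 2. Over all microRNA genes, the opposite-strand column held 170618 counts in replicate 1, or 6.84% of both strands' counts, and 253457 in replicate 2, or 6.91%. Its count in the deposited column for both strands together was equal to the same-strand count in each replicate. Of the 84 genes at 1000 CPM or more, Mir139 included, 75 had 0 opposite-strand counts in both replicates, so this is not particular to Mir139. Of the same 84 genes 69 had equal columns and 9 lost most of their counts in the column for both strands. In that column 170529 reads of replicate 1 and 253343 of replicate 2 were ambiguous between genes, nearly as many as the opposite-strand counts. The all-gene shares of 6.84% and 6.91% are therefore not a measure of antisense reads, and the source of those counts was not tested.

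The hairpin lies within introns of 2 annotated genes on its own strand. Pde2a (ENSMUSG00000110195.1) spans positions 101421691 to 101512827 of chromosome 7. In its transcript Pde2a-201 the hairpin sits in intron 2 of 30, which is 29902 bases long, 23907 bases after the upstream exon and 5927 bases before the next. Gm45837 (ENSMUSG00000030653.17), annotated as protein-coding and overlapping Pde2a, spans 101410886 to 101512819, and the hairpin lies in intron 3 of 31 of its transcript. The hairpin starts 53685 bases after the start of Pde2a and 64490 bases after that of Gm45837. The counts are of small RNA, so the level of the Pde2a messenger RNA was not measured, nor can C57BL/6J and CAST/EiJ copies be told apart in them.

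**Figure D4:**
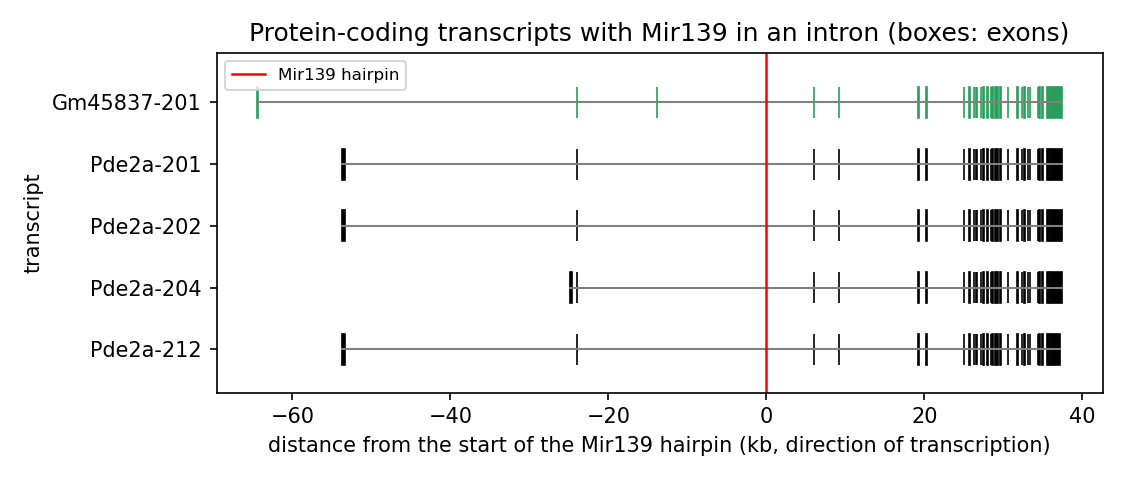
Exons (boxes) and introns (lines) of the 5 protein-coding transcripts of Pde2a (black) and Gm45837 (green) that hold Mir139 in an intron, against distance in kb from the start of the hairpin (red line). The hairpin lies in an early intron of each transcript, 5927 bases before the next exon.

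Mir139 has no microRNA neighbour close by. The nearest listed microRNA gene upstream is Mir3102, on the other strand at 593 kb, with 704 CPM (replicate 1) and 608 CPM (replicate 2). Downstream it is Gm22655, at 406 kb in an intron of Anapc15, with 0 counts in both replicates. The nearest detected gene downstream, Mir7059 in an intron of Cln3, is 25104 kb away, with 7.75 CPM (replicate 1) and 5.57 CPM (replicate 2).

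Among microRNA genes in introns of protein-coding genes on the same strand, Mir139 ranked second by mean level. Of 733 such genes 163 were detected, with a median of 52.4 CPM. The class leader was Mirlet7g, in an intron of Wdr82, and Mir744, in an intron of Map2k4, was next after Mir139. Mir139 gave 14.4% of the class sum of 413741 CPM in replicate 1 and 19.2% of 426274 CPM in replicate 2. Of the detected genes of the class 69, or 42.3%, passed the exact binomial test between the replicates, 37 of them lower in replicate 1, against 50.9% of all detected genes. The median size of the difference was the same, 1.26-fold, in the class and over all detected genes.

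Other phosphodiesterase genes carried little. Of 4 microRNA genes in introns of genes whose symbol begins with Pde and a digit, 2 were detected, against 163 of all 733 genes of the intronic class. Of these 2, Mir139 was chosen for its level. The other was Mir582, in an intron of Pde4d, a cAMP-specific phosphodiesterase gene, with 10.3 CPM (24 counts, replicate 1) and 21.7 CPM (74 counts, replicate 2). It was called lower in replicate 1, by 2.03-fold (adjusted exact binomial p = 0.00309), as were 28.2% of all detected genes. Mir1904, also in Pde4d, and Gm44413, in Pde1c, had 0 counts in both. Of the genes that overlap exons of such genes, Mir7225 in Pde4dip had 0 counts and Mir7672 in Pde12 had 0 counts in replicate 1 and 1 in replicate 2. Pde4dip encodes a protein that binds a phosphodiesterase and is not itself one.

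Mir139 shares little sequence with other listed genes. Its longest run in common with another hairpin was 11 nt, with Gm22370 and Mir6352, while 87 of the 401 detected genes share 20 nt or more with another microRNA gene. Neither mature sequence occurs in any other annotated transcript of GENCODE M21. Copies elsewhere in the genome were not searched. With the genes that share 20 nt or more left out, Mir139 was again at rank 4 by mean. Leaving genes out cannot move it down. It also does not show where those genes would stand if their multimapping reads were counted.

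The annotated hairpin is short, GC-rich and tightly folded beside other detected genes. It has 68 nt, against a median of 82 nt, and 78 of the 401 detected genes are shorter. Its GC content is 58.8%, against a median of 52.0%, and 90 detected genes have more. RNAfold predicted a folding energy of -35.6 kcal/mol, or -0.524 kcal/mol per nt, against a median of -0.435, and 65 detected genes were lower per nt. In that prediction 20 of the 22 bases of the 5p arm are paired, 19 of them with the 3p arm, and the unpaired bases are the 8th, the last of the seed, and the 11th.

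**Figure D5:**
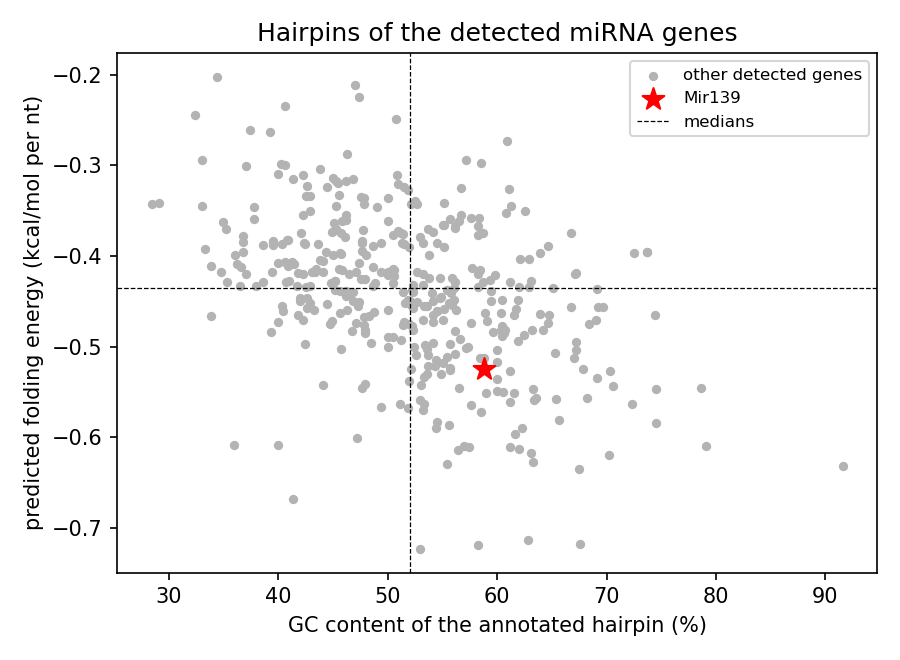
Predicted folding energy per nt (y axis, kcal/mol) against GC content (x axis, %) of the annotated hairpins of the 401 detected microRNA genes, with Mir139 as a red star and the medians as dashed lines. Mir139, at 58.8% GC and -0.524 kcal/mol per nt, lies on the GC-rich, lower-energy side of both medians.

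The letters that pair with the 5p seed were searched on the transcript strand in the longest annotated 3′ untranslated region of the mouse counterparts of the 4 genes named above. The 7-letter motif is ACTGTAG, and the 8-letter motif, ACTGTAGA, contains it and adds the base opposite the first base of the microRNA. Of 21020 genes with such a region, of a median of 961 nt, 11.0% hold the shorter motif and 3.72% the longer. Igf1r, at 7267 nt, holds the shorter 2 times and the longer 1 time, and Cxcr4, at 644 nt, holds the longer 2 times. Fos, at 815 nt, holds the shorter 1 time and the longer at no place, and Rock2, at 3182 nt, holds neither. Of regions within 20% of the same length, 44.1% hold the shorter motif for Igf1r, 4.94% for Cxcr4, 5.83% for Fos and 24.2% for Rock2. The longer motif is held by 17.0% of those regions for Igf1r, 1.34% for Cxcr4, 2.13% for Fos and 7.67% for Rock2. The first site of the longer motif, or of the shorter one in Fos, shown because its capitals can be read against the seed of miR-139-5p, is given 5′ to 3′ from GENCODE M21, with the motif in capitals.
Igf1r site: tacctgttttaatcACTGTAGA
Cxcr4 site: tatctgtgtgtaggACTGTAGA
Fos site: agctatatccatgtACTGTAG
A match is a run of letters, and no messenger RNA or protein of these genes was measured.

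Lists of microRNA genes known from particular cell types place the tissue and the level of Mir139 in it. The neuronal list of 19 genes, 17 of them detected, had a sum of 35232 CPM (replicate 1) and 50946 CPM (replicate 2), and Mir139 alone was 1.70-fold and 1.60-fold that sum. In this list 14 genes have a run of at least 20 nt in common with another hairpin, and reads that map to several places are in no gene's count. The endothelial list, carried by Mir126a, reached 14889 CPM (replicate 1) and 12474 CPM (replicate 2). Mural and smooth muscle genes, led by Mir143, summed to 6456 and 6935 CPM in replicates 1 and 2, oligodendrocyte genes, led by Mir338, to 4367 and 2683 CPM, erythrocyte genes, led by Mir451a, to 1923 and 1149 CPM, and microglial and leukocyte genes, led by Mir150, to 1262 and 1601 CPM. The leader of a list is its gene of highest mean CPM. In replicate 1 Mir219a-2 was above Mir338, and Mir146 was above Mir150. Mir122 of liver, with 52.1 and 40.7 CPM in replicates 1 and 2, and the striated muscle list, at 80.1 and 29.3 CPM, were low, and 5 of the 9 muscle genes were at 0. All 5 have a run of at least 20 nt in common with another hairpin, so their 0 counts do not show that their products were absent. The neuronal sum was 1.45-fold lower in replicate 1, mostly from Mir128-1, at 4518 CPM (replicate 1) and 16906 CPM (replicate 2). Its members did not move together. With TMM scaling 8 of the 17 detected passed the exact binomial test and were lower in replicate 1, and 4 were higher. Over all 401 detected genes 113 passed and were lower, and 91 passed and were higher. Among the 4 higher neuronal genes were Mir132 (log2 ratio 0.08), the leader of the list by mean, and Mir138-1 (0.89). In replicate 2 both Mir128-1 and Mir137 were above Mir132. The oligodendrocyte and erythrocyte sums were 1.63-fold and 1.67-fold higher in replicate 1, each carried by 1 gene. These were Mir219a-2, with a log2 ratio of 1.53 beside 0.10 for Mir338, and Mir451a, with 0.87 beside -0.33 for Mir144 and -0.02 for Mir486. Whether cell composition has a part in the replicate difference of Mir139 was not tested, and in bulk tissue fewer cells of a type and less RNA per cell cannot be told apart.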

How the data were processed

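MicroRNA-seq libraries, with fragments under 30 nt per the labels, were deposited as 1 table per library. The authors deposited raw read counts per microRNA gene in 3 columns, for both strands, the gene's strand and the opposite strand. The genome build was mm10 per the labels and the annotation GENCODE M21 per the text deposited beside the tables. The aligner and counter are not given in the sources used here. The 4 rows that name no gene stayed out of library sizes. CPM are same-strand counts scaled to 1000000 over all microRNA genes, so they are shares of placed reads, not of molecules.

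Symbols, introns and hairpins came from GENCODE M21 and mature sequences from RefSeq (GRCm38.p6), where Mir139 matched by symbol. Scaling used TMM (edgeR 4.0.16, R 4.3.3; factors 0.991 and 1.01) on genes at 2 CPM or more in both libraries. Single genes were compared by two-sided exact binomial tests with Benjamini-Hochberg adjustment at 0.05, with 0.5 added to counts before log2 ratios. The test was checked on simulated counts with counting error only, so that check does not cover variation between libraries beyond counting error. Folding used RNAfold 2.7.2. Alternatives were library size, DESeq2 1.42.0 size factors, upper quartile factors, other denominators, the column for both strands and no filter.

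Named genes are Mir139, its neighbours in level, ratio and position, genes with its seeds, genes in Pde introns, and list leaders. Members, lists and tests were chosen with earlier results of these data known.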

Additional observations from a re-analysis of the deposited data

How the results depend on the processing

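The level of Mir139 follows the denominator. Its mean of 70748 CPM became 117586 CPM with the let-7 family left out of the total, 31099 with multimapping reads added and 24721 over all reads. With the column for both strands it was 76389 CPM, and leaving out 1 replicate gave 59771 to 81726 CPM. Its rank of 4 by mean ranged over 3 to 4 when 1 replicate was left out, and stayed at 4 with the column for both strands. It was also 4 among genes that share under 20 nt, a setting that leaves genes out and so cannot move Mir139 down. The opposite-strand share remained 0 without either replicate.

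Mir139 was lower in replicate 1, past the exact binomial threshold, under each scaling run. The log2 ratio of -0.43 was -0.45 by library size, -0.39 with DESeq2 size factors, -0.43 with TMM without let-7, -0.45 with the column for both strands and -0.24 with upper quartile factors. The upper quartile factors move the median ratio of detected genes to 0.15, against -0.03 with TMM, and turn the split of called genes to 76 lower and 140 higher in replicate 1, against 113 lower and 91 higher. They also raise the number of detected genes that differ more than Mir139 to 259, against 145 with TMM. The number of genes called, 204 of 401 tested, ranged over 184 to 216, with the number tested changing too. It was 184 of 376 with the column for both strands and 216 of 401 with upper quartile factors. With no filter it was 210 of 715, so the share called fell to 29.4%, against 50.9%. No paired analysis was possible because there is 1 group.

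With 2 libraries, the SD rests on a single difference. Depth does not limit the Mir139 values, whose counting intervals are narrow.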
